A study of Rattus norvegicus with 10 samples.

Results

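Small nucleolar RNAs (snoRNAs) were followed here in plasma exosomes, vesicles that cells shed into the blood, of 10 male Wistar rats. The members were all transcript clusters of the array whose only annotated gene symbol was Snord or Snora followed by a number, which gave 9 clusters (8 symbols) of 68842 clusters in all. There were 2 clusters of box C/D snoRNAs (Snord22 and Snord33) and 7 of box H/ACA snoRNAs (Snora20, Snora21, Snora30, Snora36c, Snora58 and Snora44 with 2 clusters). The clusters were selected by symbol alone, but the family was chosen by a measured value, the lower Snord22 log2 signal after conditioning in these same 10 samples. The Snord22 values are therefore a description and carry no test.

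The study set 5 healthy control rats against 5 rats given remote ischemic conditioning (RIC), in which blood flow to a body part away from the organ of interest is stopped and restored. The RIC group received 4 cycles, each with 5 min of ischemia and 5 min of reperfusion, and 10 ml of venous blood was taken per rat into EDTA tubes. The labels read here give no age, no site of the ischemia, no interval to blood sampling and no sham procedure. Each rat contributed 1 array, and levels are log2 signal as deposited.

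By way of background, snoRNAs are short guide RNAs of the nucleolus. Box C/D members base-pair with ribosomal and spliceosomal RNA and place 2′-O-methyl groups, box H/ACA members guide the conversion of uridine to pseudouridine, and most mammalian snoRNAs are cut from introns of longer host transcripts. Some are processed further into microRNAs. Their level in vesicles is not the same as their level in the cells of origin, and in bulk vesicle RNA fewer vesicles carrying an RNA cannot be told apart from less of it per vesicle.

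The symbols needed a check before the values, because snoRNAs have many near copies in the genome. The characters after TC in a cluster ID gave the chromosome: of 21794 clusters with a RefSeq gene number, 98.7% carried the chromosome that RefSeq assembly GRCr8 gives for that gene. By this measure 3 of the 9 clusters (Snora30, Snora36c and Snora58) lay on the chromosome of the RefSeq gene of that name, and 6 did not. The Snord22 cluster, TC0300004822.rn.1, was numbered to chromosome 3, whereas RefSeq lists Snord22 on chromosome 11. Snord33 (TC0800003497.rn.1) was numbered to chromosome 8 against 1 in RefSeq, Snora20 (TC0100002132.rn.1) to 1 against 8, and Snora21 (TC0X00000533.rn.1) to X against 5. Snora44 clusters 1 and 2 (TC0200002939.rn.1 and TC0700002722.rn.1) were numbered to chromosomes 2 and 7 against 5. None of these 6 clusters had a gene number in the platform annotation. Each is therefore called by its array symbol, and it may report a copy of that snoRNA other than the RefSeq gene.

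ID numbers also ran along each chromosome, with 92.0% of 16742 steps between consecutive named clusters in rising RefSeq order, which placed the clusters among their neighbours. The Snord22 cluster sat between those of B4galt5, a galactosyltransferase gene, and Spata2, an adaptor of death-receptor signalling. Between these genes RefSeq lists 1 snoRNA gene without a family symbol, LOC120101999, of 123 bases. RefSeq likewise lists 1 such gene between the flanking genes of Snord33 (LOC120094443), Snora20 (LOC120100366, inside Rnf169), Snora21 (LOC120099460) and Snora44 cluster 2 (LOC120093959, inside Zfc3h1). Snora30 (TC0100002640.rn.1) lay among clusters of Srcap, a chromatin remodeller gene that holds the RefSeq Snora30. Snora44 cluster 1 fell between Itga2 and Itga1, where RefSeq lists no snoRNA gene. The RefSeq intervals were read without regard to strand, so a gene listed in one may lie on the other strand. The clusters of Rnf169, Zfc3h1, Slc9a8, Eif2s3 and Lox, genes in such intervals, were not next to the members in ID order. Whether the probes of a cluster match the RefSeq gene at its place was not tested.

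Snora36c (TC1800000508.rn.1) and Snora58 (TC0600002916.rn.1) were the 2 members with a gene number, and both numbers belong to microRNA genes. RefSeq gives Snora36c the synonym Mir664-1 and Snora58 the synonym Mir3068, the second lying inside Alkbh1. The hairpin that RefSeq (GRCr8) gives for Snora36c lies at chr18:48150366-48150424 on the plus strand, and the array also holds a cluster for Mir664-2, whose hairpin lies at chr13:99324650-99324708 on the plus strand. Both hairpins are 59 bases long and differ by A15U, counted from the 5′ end with the Snora36c base first. They are shown because so close a pair may share signal on an array, and the capital marks the differing base.
Snora36c hairpin: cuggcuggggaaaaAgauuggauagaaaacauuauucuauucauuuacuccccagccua
Mir664-2 hairpin: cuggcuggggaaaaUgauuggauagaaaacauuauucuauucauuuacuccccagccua

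The mature arms cut from the pair are given next, with the seed (bases 2 to 8, which pair with target RNA) in capitals. The 3p arm is the same in both genes, and the 5p arms share a seed that no other mature rat miRNA in the RefSeq table has.
rno-miR-664-3p: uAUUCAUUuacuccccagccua
rno-miR-664-1-5p: cUGGCUGGggaaaaagauugg
rno-miR-664-2-5p: cUGGCUGGggaaaaugauugg

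The Snora58 hairpin lies at chr6:112811875-112811950 on the minus strand (GRCr8). Box H/ACA RNAs carry an H box (ANANNA) and the triplet ACA near the 3′ end. The triplet occurs in the last 10 bases of the Snora58 hairpin, in capitals below, and in 52 of 419 RefSeq rat hairpins (12.4%), searched on the RNA strand. The H box letters occur in the Snora36c and Snora58 hairpins and in 276 of the 419 (65.9%), so that a match says little. The ACA letters were not found in the last 10 bases of the Snora36c hairpin, which is shorter than a whole H/ACA RNA.
Snora58 hairpin: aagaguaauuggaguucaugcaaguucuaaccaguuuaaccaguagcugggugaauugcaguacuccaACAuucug
rno-miR-3068-5p: uUGGAGUUcaugcaaguucuaacca
rno-miR-3068-3p: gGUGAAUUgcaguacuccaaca

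Array medians ran from 4.05 to 4.23, and clusters of 1464 olfactory, vomeronasal and trace amine receptor genes, taken as background, had a median level of 4.01 with a 95th percentile of 4.38. Of the 9 snoRNA clusters 7 lay above 4.38, against 32.8% of all clusters, and Snora30 (mean 3.98) and Snora58 (4.24) lay below it. Snord22 had the highest mean level of the family (7.52), above 92.8% of all clusters, followed by Snord33 (6.08) and Snora21 (5.29), though signals of different probes do not rank RNAs by amount. None of the members reached the ceiling of 19.93, at which the vesicle genes Cd9 and Sdcbp and the platelet genes Pf4 and Tubb1 sat on all arrays. The clusters with a mean of 6 to 18 had a median difference of -0.21 and the receptor clusters one of 0.09 (RIC minus control), so bright clusters tended to lower and dim ones to higher values in RIC. Control sample 2 had the widest distance between the medians of these 2 sets (4.47) and RIC sample 5 the narrowest (3.41).

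Snord22, a box C/D snoRNA, was the member named for its difference. In the controls it measured 7.32, 7.32, 8.46, 9.11 and 9.51 in samples 1 to 5, and in the RIC rats 6.25, 7.42, 6.66, 6.45 and 6.73. The controls spread over more than the RIC samples, 4 of 5 RIC samples lay below all controls, and RIC sample 2 lay above control samples 1 and 2, so the groups overlapped. Means were 8.34 ± 1.01 in control and 6.70 ± 0.44 in RIC (SD, n = 5 each), a log2 difference of -1.64. The difference was -2.33 without control samples 1 and 2, the lowest controls, and it ranged from -1.73 to -1.45 over the 4 other scalings of the arrays. It rested most on control sample 5, without which it was -1.35.

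The clusters next to Snord22 in ID order did not share its level. The unnamed cluster before it, TC0300004821.rn.1, measured 4.19 ± 0.10 in control and 4.17 ± 0.21 in RIC, and the one after it, TC0300004823.rn.1, measured 3.90 ± 0.22 and 3.74 ± 0.07. B4galt5 had a log2 difference of -0.02 (SE 0.05) and Spata2 one of 0.01 (SE 0.03), both near background. Slc9a8, a sodium/proton exchanger gene that RefSeq lists in the same interval, had 4.24 ± 0.07 in control and 4.30 ± 0.06 in RIC. Snhg1, the transcript known in mammals to host Snord22, had no cluster of its own symbol and was not analysed here. Since the Snord22 cluster was not numbered to the chromosome of the RefSeq Snord22, Snhg1 may not host the RNA that it measures.

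**Figure D1:**
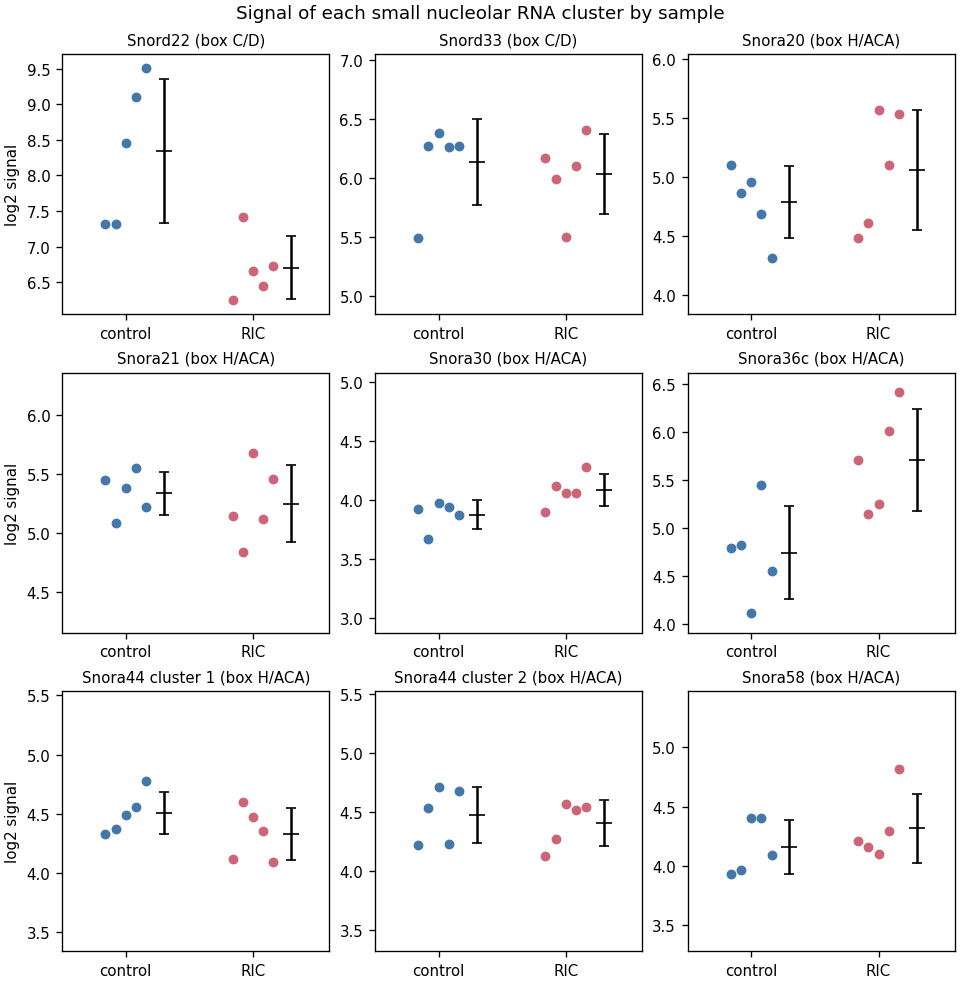
Log2 signal (y axes) of each of the 9 snoRNA clusters in the 5 control and 5 RIC samples; points are samples and bars show mean ± SD. Snord22 is lower in RIC with overlap between 7.32 and 7.42, and Snora36c is higher with overlap between 5.15 and 5.45.

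**Figure D2:**
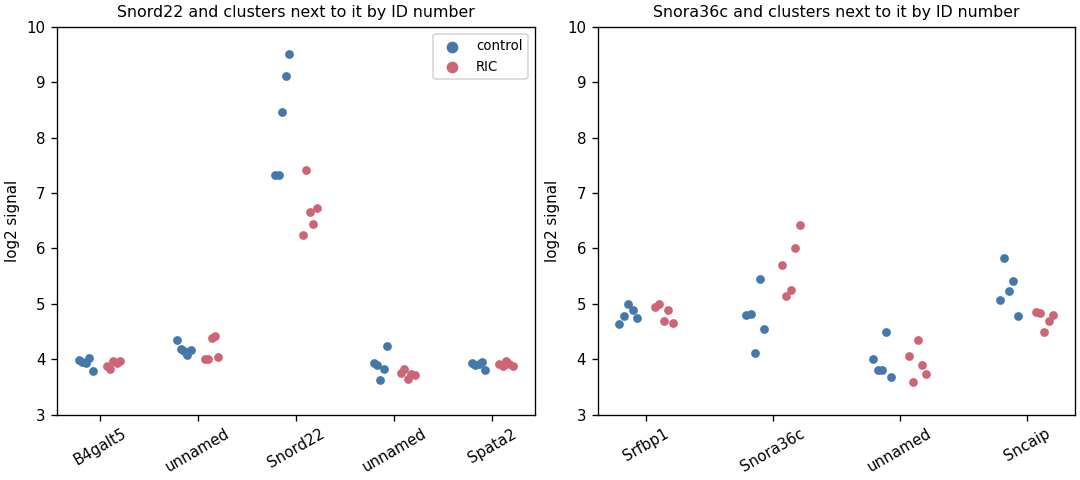
Log2 signal (y axes) of Snord22 (left) and Snora36c (right) beside the clusters next to them in ID order, with points for the 5 control and 5 RIC samples; unnamed marks clusters without a gene symbol. The clusters around Snord22 stay below 5 in all samples, while Snord22 spans 6.25 to 9.51.

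Snord33, which is known to sit in an intron of the ribosomal protein gene Rpl13a in mammals, was the other box C/D member. It measured 5.49, 6.27, 6.38, 6.26 and 6.27 in control samples 1 to 5 and 6.17, 5.99, 5.50, 6.10 and 6.41 in RIC samples 1 to 5. One sample in each group, control sample 1 and RIC sample 3, lay at about 5.5 and the remaining 8 within 5.99 to 6.41, so the groups covered the same range. The log2 difference was -0.10 (SE 0.21, limma adjusted p = 0.882), and it turned to 0.06 after repeated quantile normalization and to 0.006 with each array's level-dependent trend removed. Rpl13a itself had 1 value, 9.34, on all arrays and cannot show a difference. Since the Snord33 cluster was not numbered to the chromosome of Rpl13a, no link between the 2 can be read from these values. Stt3b, an oligosaccharyltransferase gene named next to the cluster, had 6.06 ± 0.20 in control and 5.88 ± 0.15 in RIC.

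Box H/ACA members did not move in one direction, with 4 of 7 clusters higher in RIC and 3 lower. The 4 and 3 stood under every scaling run. Their median difference was 0.16, against 0.03 over all clusters, and it fell to 0.034 without RIC sample 5. The median of 0.16 was the difference of Snora58, a cluster at background level. Snora36c and Snora58, both among the 4 higher clusters, are the 2 members whose gene numbers belong to microRNA genes.

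Snora36c had the largest positive difference in the family. It measured 4.79, 4.82, 4.11, 5.45 and 4.55 in control samples 1 to 5 and 5.71, 5.15, 5.25, 6.01 and 6.42 in RIC samples 1 to 5. All 5 RIC samples were above the control median and 3 were above every control, while control sample 4 exceeded RIC samples 2 and 3. Means were 4.74 ± 0.49 in control and 5.71 ± 0.53 in RIC (SD, n = 5 each), with a log2 difference of 0.96 (SE 0.30). With limma the unadjusted p was 0.0106 and the adjusted p over all clusters 0.378, so it did not pass. The difference stayed between 0.79 and 1.14 in all 20 alternatives, lowest without RIC sample 5 and highest without control sample 4, and its unadjusted p stayed under 0.05 in all of them, from 0.00368 to 0.0372.

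Mir664-2, whose hairpin differs from that of Snora36c by the 1 base shown above, had a smaller difference that did not pass. Its cluster measured 5.11, 4.76, 4.40, 5.42 and 4.57 in control samples 1 to 5 and 5.20, 5.27, 5.43, 4.32 and 5.82 in RIC samples 1 to 5. As in Snora36c, control sample 4 was the highest control, control sample 3 the lowest, and RIC sample 5 the highest RIC sample. RIC sample 4 was the exception, second highest for Snora36c at 6.01 and lowest for Mir664-2 at 4.32. The log2 difference was 0.36 (SE 0.29, limma unadjusted p = 0.248). The gap between the differences of the 2 clusters was 0.61 (two-sided exact permutation p = 0.111 over 252 assignments of 5 against 5, smallest possible p 0.00794), a comparison chosen after the values had been seen. How far either cluster takes up RNA of the other gene was not tested.

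Genes beside Snora36c behaved otherwise. Srfbp1, which encodes a partner of serum response factor and stands next to it in ID order, had 4.81 ± 0.14 in control and 4.83 ± 0.15 in RIC. Lox, the collagen cross-linking enzyme gene that follows in RefSeq, had a log2 difference of -0.15 (SE 0.055). The nearest named cluster on the far side, Sncaip, which encodes the synuclein partner synphilin, had one of -0.53 (SE 0.175). With limma, Lox and Sncaip had unadjusted p of 0.0232 and 0.0138 and adjusted p of 0.409 and 0.385.

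Snora30 was higher in RIC by a small amount at background level. Controls ran from 3.67 to 3.97 (median 3.92) and RIC samples from 3.90 to 4.28 (median 4.06), with 4 of 5 RIC samples above all controls and RIC sample 1, at 3.90, within the control range. The log2 difference was 0.21 (SE 0.08), with a limma unadjusted p of 0.0249 and an adjusted p of 0.411. Its unadjusted p stayed under 0.05 in 11 of 19 alternatives and was 0.0661 after centring on the array median. The difference compares with 0.09 for the receptor clusters at the same level. The Srcap clusters around Snora30 did not rise with it, with differences of -0.05 (SE 0.06) and -0.08 (SE 0.24). TC0100002641.rn.1, the unnamed cluster that follows Snora30, had 4.63 ± 0.16 in control and 5.00 ± 0.35 in RIC (difference 0.37, SE 0.16).

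The remaining H/ACA clusters had differences within 2 standard errors of 0. Snora20, at 4.78 ± 0.30 in control and 5.06 ± 0.51 in RIC, split in RIC: samples 3 and 5 at 5.57 and 5.53 exceeded all controls, while samples 1 and 2 at 4.48 and 4.61 lay in the lower part of the control range of 4.31 to 5.10. Snora21, a snoRNA with a level above 84.8% of clusters, had 5.34 ± 0.18 and 5.25 ± 0.33, and its difference of -0.09 turned to 0.015 without RIC sample 2. Snora58 had 4.16 ± 0.23 and 4.32 ± 0.29, and its difference of 0.16 fell to 0.034 without RIC sample 5, which at 4.82 stood above all other samples. Alkbh1, the demethylase gene around it, had a difference of -0.02 (SE 0.04). Rnf169, which RefSeq lists between the flanking genes of Snora20, has its own cluster elsewhere in ID order. It measured 4.73 ± 0.08 in control and 4.73 ± 0.11 in RIC. Klhl15, next to Snora21, had 4.02 ± 0.03 and 4.06 ± 0.07. Eif2s3, which RefSeq lists between the flanking genes of Snora21, had 11.19 ± 0.65 in control and 10.50 ± 0.425 in RIC. Its difference was -0.69 (SE 0.325, limma adjusted p = 0.468). With limma the adjusted p of Snora20, Snora21 and Snora58 were 0.684, 0.855 and 0.706.

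The 2 clusters annotated to Snora44 had similar levels and small negative differences. Cluster 1, numbered to chromosome 2, ran from 4.33 to 4.78 in control and 4.09 to 4.60 in RIC (difference -0.18, SE 0.12). Cluster 2, numbered to chromosome 7, ran from 4.22 to 4.71 and from 4.13 to 4.57 (difference -0.07, SE 0.13), which turned to 0.001 without RIC sample 1. Itga2, the platelet collagen receptor subunit whose cluster precedes cluster 1, measured 5.23, 5.68, 5.14, 5.16 and 5.37 in control samples 1 to 5 and 5.11, 4.86, 4.89, 5.11 and 4.85 in RIC samples 1 to 5. Its groups did not overlap, and its difference of -0.35 (SE 0.11) had a limma adjusted p of 0.378. The unnamed cluster after cluster 1, TC0200002940.rn.1, had 5.25 ± 0.375 in control and 4.77 ± 0.45 in RIC (difference -0.48, SE 0.25). Itga1, the next named cluster, had a difference of -0.004 (SE 0.08). Zfc3h1, a zinc finger gene that RefSeq lists between the flanking genes of cluster 2, had differences of -0.29 (SE 0.14) and -0.15 (SE 0.12) in its 2 clusters. Thap2, next to cluster 2 in ID order, had one of -0.10 (SE 0.10). The unnamed cluster after cluster 2, TC0700002723.rn.1, had a difference of 0.13 (SE 0.25). No neighbour of either cluster passed limma over all clusters.

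Counted over the family apart from Snord22, 0 of 8 clusters passed limma at an adjusted p under 0.05, as did 0.0% of all 68842 clusters, whose lowest adjusted p was 0.302. At p under 0.05 before adjustment stood 2 of the 8 (Snora30 and Snora36c), both higher in RIC, against 11.1% of all clusters in either direction, 7.97% higher and 3.17% lower in RIC. A trended, robust variance model called 0 clusters as well. Of those calls at the unadjusted threshold over all clusters 71.6% were higher in RIC, a share of 26.8% after centring on the array median, 15.9% after centring on the receptors, 49.1% after repeated quantile normalization and 47.8% with the trend removed. None of the 9 members had groups without overlap, a state found in 1.74% of all clusters. As Snord22 brought the family forward through the same comparison, nothing is read from these counts.

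**Figure D3:**
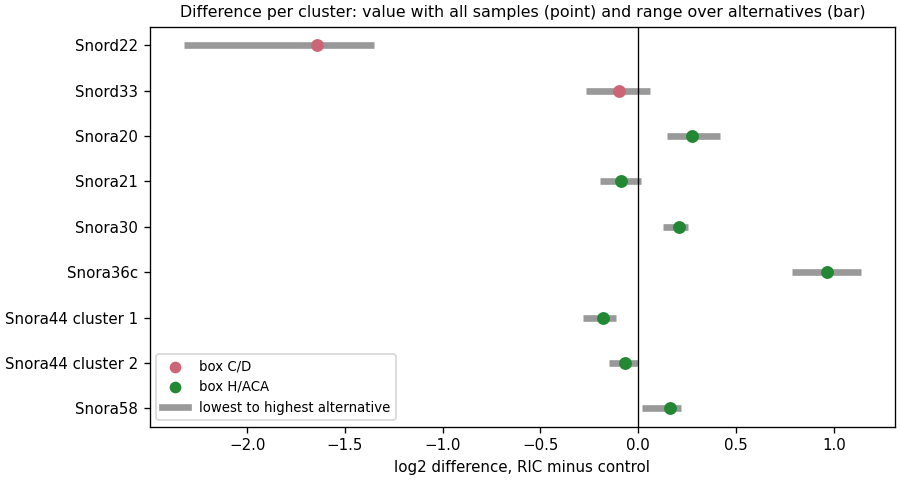
Log2 difference (RIC minus control, x axis) of each snoRNA cluster, with the value from all samples as a point and the lowest to highest value over the alternatives as a bar. Snord22 stays at or below -1.35 and Snora36c at or above 0.79, and the bars of Snord33, Snora21 and Snora44 cluster 2 cross 0.

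RNAs of like kind were set beside the snoRNAs. Scarna3 and Scarna15 guide modification in Cajal bodies, Rnu12 is the U12 RNA of the minor spliceosome, Terc the telomerase RNA, Rpph1 the RNA of ribonuclease P and Rn7sl1 the RNA of the signal recognition particle. Of 7 clusters with such symbols 6 varied, 4 of them higher and 2 lower in RIC, a split that was 3 and 3 after centring on the receptors and 5 and 1 after repeated quantile normalization. With limma 0 passed over all clusters and 1, Rnu12, had an unadjusted p under 0.05, beside 11.1% of all clusters. The Rnu12 difference was 0.28 (SE 0.12, limma adjusted p = 0.437). Scarna3, which RefSeq gives the synonym Mir1843a, had 5.14 ± 0.32 in control and 5.59 ± 0.64 in RIC. RIC sample 5 led with 6.67, and control sample 2 was lowest with 4.56. Mir1843b, whose 3p arm shares the Scarna3 seed, had 6.23 ± 0.49 and 6.85 ± 0.51, with an adjusted p of 0.474. Scarna15, with the synonym Mir1839, had a difference of 0.12 (SE 0.16). The 2 Rpph1 clusters, both lower in RIC, had control means of 17.88 and 19.32. The second read 19.32 in all controls and in RIC samples 2, 3 and 5. Its difference rested on RIC samples 1 and 4, at 18.73 and 18.80.

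Genes of proteins that bind or assemble with snoRNAs were described from a list of 22. The array measures their RNA, and protein was not measured. All 22 had a cluster, with 7 higher and 15 lower after conditioning (median difference -0.08). With limma 0 of 22 passed over all clusters, and 3 had an unadjusted p under 0.05: Fbl and Znhit6 with lower and Znhit3 with higher means, a number to set beside the 11.1% of all clusters at that threshold. The share lower followed the scaling, from 13 of 22 after repeated quantile normalization to 21 of 22 after centring on the receptors.

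All 4 core protein genes of the box C/D particle had lower mean RNA signal in RIC. All lay above the receptor 95th percentile, where 13003 of 22576 clusters were lower in RIC. Of the 5928 clusters with a mean of 6 to 18, which include Nop58, 4600 were lower. The count of lower C/D core genes was 2 of 4 after repeated quantile normalization and 4 of 4 in the 3 other scalings. Fbl, the methyltransferase fibrillarin, measured 6.06, 6.22, 5.95, 5.83 and 5.52 in control samples 1 to 5 and 5.76, 5.41, 5.43, 5.85 and 5.44 in RIC samples 1 to 5. Control sample 5 fell within the RIC range and control sample 4 just under the highest RIC sample, while 3 RIC samples lay below all controls (difference -0.34, SE 0.14, adjusted p = 0.436). Snu13, which binds the box C/D motif first, had 6.08 ± 0.48 in control and 5.73 ± 0.12 in RIC, Nop58 7.08 ± 0.36 and 6.86 ± 0.14, and Nop56 5.64 ± 0.18 and 5.55 ± 0.05.

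The core protein genes of the box H/ACA particle had RNA signal close to their control means, with differences from -0.06 to 0.07. Dkc1, the pseudouridine synthase dyskerin, had 4.71 ± 0.03 in control and 4.75 ± 0.015 in RIC. Nhp2 had a difference of 0.07 (SE 0.13), Gar1 one of 0.06 (SE 0.095) and Nop10 one of -0.06 (SE 0.16). In the deposited values 3 of the 4 were higher, a number that ran from 0 to 4 over the scalings. The C/D and H/ACA core sets were not tested against each other.

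**Figure D4:**
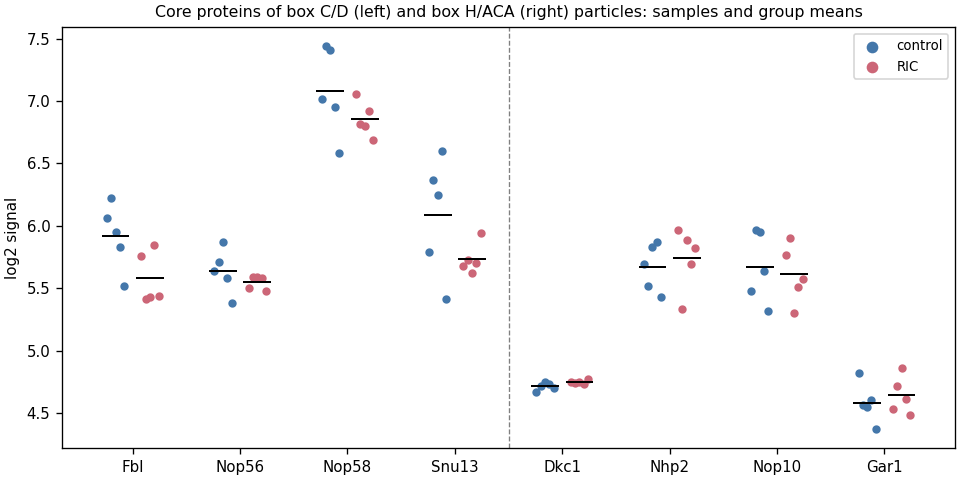
Log2 signal (y axis) of the 4 core protein genes of box C/D particles (left of the dashed line) and the 4 of box H/ACA particles (right) in 5 control and 5 RIC samples, with group means as black lines. The RIC means of Fbl, Nop56, Nop58 and Snu13 lie below the control means, and those of the H/ACA genes differ by at most 0.07.

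Among 14 assembly and maturation factors 10 were lower and 4 higher. Znhit3, a factor of box C/D assembly, measured 4.0, 4.16, 4.06, 4.06 and 4.10 in control samples 1 to 5 and 4.15, 4.20, 4.25, 4.24 and 4.25 in RIC samples 1 to 5, at background level (difference 0.14, SE 0.04, limma adjusted p = 0.354). Only RIC sample 1 fell below the highest control. Znhit6, another assembly factor, had 6.63 ± 0.17 in control and 6.41 ± 0.11 in RIC (adjusted p = 0.42). Nolc1, a nucleolar chaperone of snoRNA particles, had a difference of -0.23 (SE 0.12) and Tgs1, which methylates the cap of snoRNA precursors, one of -0.14 (SE 0.06). Naf1 and Shq1, which assist assembly of the H/ACA particle, each had a difference of -0.11, and the helicase pair Ruvbl1 and Ruvbl2 had -0.02 and 0.01. The other factors (Nufip1, Pih1d1, Rpap3, Nop14, Parn and Coil) had differences from -0.11 to 0.08.

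Of 38 genes known in mammals to host snoRNAs in their introns, 29 were measured, and 20 of these varied between arrays. They split evenly, 10 higher and 10 lower, around a median difference of -0.02, and 0 passed limma over all clusters. The higher ones include Rps12 and Rpl27a, which were flat but for 1 array, each with a difference of 0.002. Rpl7a and Rpl23a among the higher and Rack1 and Rpl32 among the lower repeated 1 value on most arrays. The even split therefore says little about direction. The split was 3 higher and 17 lower after centring on the receptors and 18 higher and 2 lower after repeated quantile normalization. With limma 1 host, Eif4a1, had an unadjusted p under 0.05, beside 11.1% of all clusters. Eif4a1, which encodes a translation helicase and hosts H/ACA and C/D snoRNAs, had 5.93 ± 0.10 in control and 5.76 ± 0.08 in RIC (adjusted p = 0.386). Gas5, a noncoding transcript known mainly for the C/D snoRNAs in its introns, had 4.76 ± 0.21 and 4.82 ± 0.11. Eef2, the translocation factor that hosts Snord37, had the largest difference, 0.62 (SE 0.32, adjusted p = 0.487).

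Markers of blood, vessel and liver cells and of vesicles were measured in the same samples, and none passed limma over all clusters. At an unadjusted limma p under 0.05 stood 2 endothelial and 2 vesicle markers, lower in RIC. So did 1 erythroid and 1 leukocyte marker, higher in RIC, beside 11.1% of all clusters. Only the endothelial marker Esam had groups that did not overlap (difference -0.66, SE 0.13, limma adjusted p = 0.313), a state found in 1.74% of all clusters. The mean log2 level over all measured markers of a list, those with 1 value on all arrays included, overlapped between the groups in each of the 6 lists. For the 4 endothelial markers, all with lower means in RIC, it was 7.0 to 8.35 in control and 6.62 to 7.25 in RIC samples. For the 5 erythroid markers it was 11.05 to 11.61 and 11.10 to 12.96, and the 3 of them that varied had higher means in RIC. The 5 leukocyte markers (5.07 to 6.07 and 5.41 to 6.12) also had higher means, of which 1 turned lower after centring on the array median or the receptors. For the 6 vesicle markers, Cd9 and Sdcbp at the ceiling included, it was 11.16 to 11.61 and 11.02 to 11.26, and the 4 that varied had lower means. The 6 platelet markers had 18.70 to 19.22 in control and 18.34 to 19.21 in RIC. Of 3 liver markers 2 had higher means, with 4.26 to 4.62 and 4.51 to 4.92 for the list. The part of these cells in the snoRNA values was not tested.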

How the data were processed

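Deposited by the authors was a single table of log2 signal, holding 10 animals in columns and 68842 transcript clusters in rows. The submitters' processing notes name Affymetrix Expression Console. Its version, the normalization and the genome build were not stated in what was read here. Symbols came from the platform annotation (23446 clusters with 1 symbol, 505 with several, 44891 with none) and RefSeq names and sequences from assembly GRCr8. Array values give no read depth, and the 5 animals per group limit the precision.

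RIC minus control was fitted over all clusters with limma 3.58.1 (lmFit, eBayes; R 4.3.3), without filter or covariate, with Benjamini-Hochberg adjustment over all clusters and a threshold of 0.05. The step was tested on simulated data with independent noise in each cluster. Those data held no shift shared across an array, so the test cannot speak to such shifts. P-values measure the spread between these animals. The family, lists and tests were chosen with earlier results of these data known. Where a listed gene had several clusters, the one with the highest mean stood for it. Named by rule were the members (by p, level or difference, here all 9), the protein list and hosts of members. Neighbours, other small RNAs and the hosts Eif4a1, Gas5 and Eef2 were named after their values were seen. Alternatives were 4 scalings, 2 filters, 2 variance models, a replicate block and leaving out samples.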

Additional observations from a re-analysis of the deposited data

Results flagged for a closer look

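In 2 of the 18 groups of 5 samples examined (9 clusters, control and RIC), 1 sample lay far from the nearest of the others relative to the range of its group. Chance gives such a sample in about 1 in 20 groups. Control sample 1 had a Snord33 level of 5.49, with the other controls between 6.26 and 6.38. Without it the Snord33 difference was -0.26, and its direction already depended on the scaling. RIC sample 5 had a Snora58 level of 4.82, with the other RIC samples between 4.10 and 4.29, and this was also the array with the narrowest distance between abundant and receptor clusters (3.41).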

How the results depend on the processing

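Over 20 alternatives limma called 0 clusters at an adjusted p under 0.05. Of the 8 snoRNA clusters other than Snord22, Snora36c kept an unadjusted p under 0.05 in all 20 (0.00894 with the replicate block) and Snora30 in 11 of 19 (0.0569 with the block). Deviations of same-numbered samples correlated between -0.049 and 0.176. Differently numbered samples were not compared, so whether replicate numbers pair the samples cannot be told from these values. The block changed no adjusted call. The Snord22 difference kept its sign, from -2.33 to -1.35, as did those of Snora20, Snora30, Snora36c, Snora44 cluster 1 and Snora58. The Snord33 difference reversed to 0.062 after repeated quantile normalization and 0.006 with the trend removed, and leaving out 1 sample gave -0.261 to 0.034. Leaving out 1 sample also reversed Snora21 (-0.196 to 0.015) and Snora44 cluster 2 (-0.132 to 0.001). The median of the Snora clusters moved to -0.068 above the receptor 95th percentile, where 5 clusters remain by construction, Snora44 cluster 1 through its control mean (4.51) and not its RIC mean (4.33). Signal close to background limits Snora30 and Snora58.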
